A study of Mus musculus with 192 samples.

Results

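Dendritic cells grown from mouse bone marrow received the ligands PAM, HMW and Zymosan together, and their messenger RNA was compared with that of cells that received any 2 of these 3 ligands. The comparison covers 12 libraries, 4 of the 64 groups of 3 libraries in the series: the PAM + HMW + Zymosan triplet and the pairs PAM + HMW, PAM + Zymosan and HMW + Zymosan, taken by their labels. All cells came from C57BL/6J females aged 6 to 8 weeks, were grown with the growth factor GM-CSF, were seeded at 100000 per well and met the ligands for 6 h. The 3 single-ligand groups and the group labelled Ctrl, with 3 libraries each, give reference levels. The series crosses 7 ligands of pattern recognition receptors singly, in pairs and in triplets. Ligand names stand as in the labels, where Zymosan is described as depleted, and doses are not given there. The labels do not say whether the 3 libraries of a group came from separate animals or cultures, so the spread between them may be technical. The p-values rest on that spread as pooled over all 64 groups, not on that of these 12 libraries alone. The triplet's own spread was wider than that of its pairs, as given below.

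Pattern recognition receptors bind molecules of bacteria, fungi and viruses and alert the cells that carry them. Many act through the transcription factor NF-kB, which turns on inflammatory cytokines and chemokines, and some also act through interferon regulatory factors, which start the production of type I interferon. Secreted interferon then induces a broad antiviral gene set through STAT factors. Zymosan is a preparation of yeast cell wall rich in beta-glucan, which the receptor Dectin-1 recognises and which signals through the kinase Syk. Activated dendritic cells also raise glycolysis, an activity under the control of the hypoxia-inducible factor HIF-1. Each comparison of the triplet with a pair asks what the ligand absent from that pair added.

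The 12 libraries held 92149 to 285614 UMIs (unique molecular identifiers, each marking 1 cDNA molecule), against 46564 to 610234 over the series. The 7 dendritic cell markers summed to 3660 to 4120 CPM in the triplet, 3630 to 3900 in PAM + HMW, 3280 to 3680 in PAM + Zymosan and 3110 to 3650 in HMW + Zymosan, with Cd209a at 0 in all 12 libraries, Flt3 at 0 in the triplet and Zbtb46 at 0 in PAM + HMW. Over the 12 libraries Flt3 had 5 UMIs and Zbtb46 had 6, so the sums come from Cd74, H2-Ab1, Itgax and Ccr7. CPM are counts per 1000000 UMIs of the genes tested, with library sizes scaled by the trimmed mean of M-values (TMM). The 8 macrophage markers summed to 4480 to 4840 CPM in the triplet, 5040 to 5440 in PAM + HMW, 4460 to 4720 in PAM + Zymosan and 5250 to 5530 in HMW + Zymosan. The triplet thus lay wholly below PAM + HMW and HMW + Zymosan in these markers, whose part in the comparisons with those pairs was not tested. Neutrophil markers summed to 464 to 874 CPM over all 4 groups. Erythroid markers were at 0. In such bulk samples, fewer cells of a type and less RNA per cell cannot be told apart.

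Replicate 1 of the triplet lay apart from its group. Counts and list medians are therefore given with and without it, and a gene said to have risen or fallen was called both ways unless its loss without that library is stated. Its counts differed from those of replicates 2 and 3 by 4.76 and 3.06 times the sampling noise (chi-square per degree of freedom), against 1.71 between replicates 2 and 3 and 1.21 to 1.60 within the pairs. Of 636 abundant genes, 30 differed at least 2-fold from the group's other libraries in replicate 1, the most of any library in the series, against 20 in replicate 2 and 0 in replicate 3. The interferon-response genes stood highest there: all 15 members of that list had their top triplet value in replicate 1, with a median log2 gap of 1.20 to the mean of the other libraries, against 0.54 for Toll-like receptors and RNA sensors, 0.26 for inflammatory genes and -0.03 for glycolysis genes. Cxcl10, an interferon-induced chemokine, was at 4593, 926 and 1756 CPM in replicates 1, 2 and 3. Gm14446 was at 478, 38.9 and 95.1 CPM, the largest such gap, and Ms4a4c was at 540.3, 58.4 and 128 CPM. Replicate 2 was the lowest of the 3 for these genes. When each library was correlated with the mean of every group, leaving the library itself out, replicate 1 had its own group at rank 10 of 64 and the PAM + Zymosan + SeV triplet first, replicate 2 had its own group at rank 2, and replicate 3 at rank 1. Over the series the median of this rank was 3, with 26 libraries at rank 1 and 17 at rank 10 or worse, so replicate 1 was not alone at such a rank.

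A gene was called when its difference passed edgeR's quasi-likelihood F-test at a Benjamini-Hochberg adjusted p under 0.05 with at least a 2-fold change (an absolute log2 fold change of 1). The 3 comparisons share the triplet libraries, so none of them is independent of the others. Between the triplet and PAM + HMW, the addition of Zymosan went with 158 higher and 67 lower genes of 4720 tested (3.35% and 1.42%, 4.77% in all), and without triplet replicate 1 with 126 and 56 (2.67% and 1.19%, 3.86% in all). Between the triplet and PAM + Zymosan, the addition of HMW went with 228 higher and 30 lower genes (4.83% and 0.636%, 5.47% in all), and without that library with 147 and 14 (3.11% and 0.297%, 3.41% in all). Between the triplet and HMW + Zymosan, the addition of PAM went with 181 higher and 95 lower genes (3.83% and 2.01%, 5.85% in all), and without that library with 128 and 63 (2.71% and 1.33%, 4.05% in all). Scaling by library size alone moved the median gene by -0.125 against PAM + Zymosan and by -0.154 against HMW + Zymosan on the log2 scale. It gave 187 higher and 57 lower genes in the first of these and 130 and 155 in the second, or 204 and 50 and 160 and 120 relative to the shifted median. Relative to that median, higher genes outnumbered lower ones in both comparisons.

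**Figure D1:**
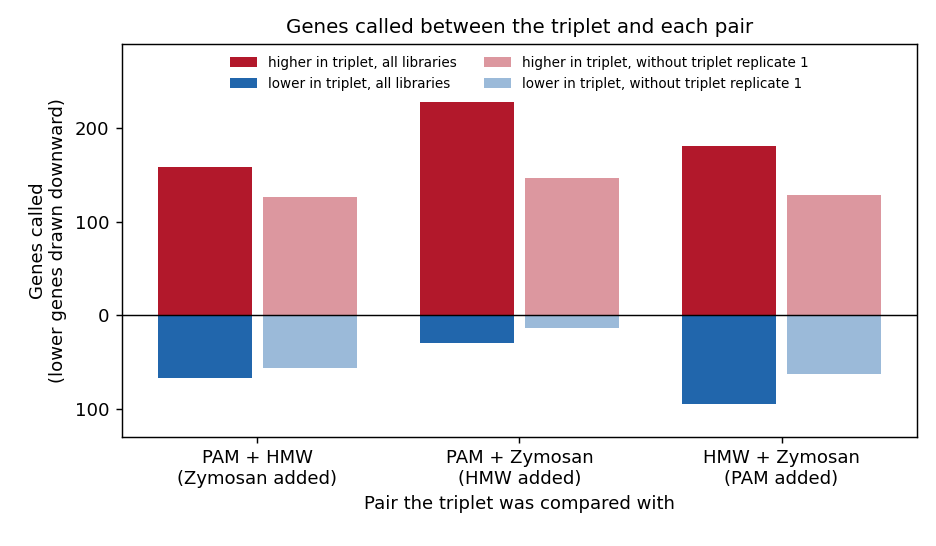
Number of genes called between the triplet and each pair (vertical axis, genes; lower genes are drawn downward), in dark bars with all libraries and in light bars without triplet replicate 1. The count of higher genes with HMW added falls from 228 to 147 when that library is left out.

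Adding Zymosan to PAM + HMW went with higher levels of glycolytic and hypoxia-response genes, of the cytokine Il10, of the interleukin-1 antagonist Il1rn and of several stress-response genes. In the list of 13 glycolysis and hypoxia genes, 7 rose, none fell and 6 did not pass, with a median log2 difference of 1.10 against 0.00 over all 4720 genes. The same 7 genes were called without triplet replicate 1, where the median was 1.16. In the interferon-response list 3 of 15 genes passed, and none without that replicate. In the inflammatory list 2 of 13 passed, Il10 and Ptgs2, of which Ptgs2 was lost without it and without PAM + HMW replicate 3. Over all genes 4.77% passed, or 3.86% without triplet replicate 1.

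Slc2a1, the glucose transporter GLUT1, was at 527, 545 and 523 CPM in the triplet and at 225, 246 and 222 CPM in PAM + HMW. The triplet libraries lay together and all above the pair, as did those of 11.5% of all genes (10.3% lay all below), with a log2 fold change of 1.20 (adjusted p = 6.36e-07, SE 0.20). PAM + Zymosan and HMW + Zymosan were at 501 ± 6.57 and 516 ± 24 CPM (SD, n = 3), and Zymosan alone at 529 CPM, while PAM, HMW and Ctrl averaged 250.3, 237 and 259 CPM. Pkm, the pyruvate kinase of the last step of glycolysis, was at 1683, 2133 and 2082 CPM against 786, 859 and 892 CPM, a log2 fold change of 1.21 (adjusted p = 5.7e-14, SE 0.13). Pgk1, phosphoglycerate kinase, was at 1506, 1833 and 1939 CPM against 821, 877 and 821 CPM, again with no overlap (log2 fold change 1.07, adjusted p = 2.64e-10). Hk2, the hexokinase that traps glucose in the cell, was at 438, 354 and 362 CPM against 204, 148 and 123 CPM. Its log2 fold change was 1.34, and those of Pfkfb3, which makes the activator of phosphofructokinase, Pgam1, a phosphoglycerate mutase, and Bnip3, a mitophagy receptor and hypoxia target, were 1.39, 1.10 and 1.30. Of the members that did not pass, Ldha, lactate dehydrogenase A, lay just under the fold threshold with 2883, 2748 and 2759 CPM against 1264, 1476 and 1462 CPM (log2 fold change 0.99), and Aldoa, an aldolase, was at 785 ± 34.8 against 683 ± 23.6 CPM (log2 fold change 0.21). The Pgk1 call ended without triplet replicate 3 (log2 fold change 0.99) and the Bnip3 call without PAM + HMW replicate 3 (adjusted p = 0.0818).

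**Figure D2:**
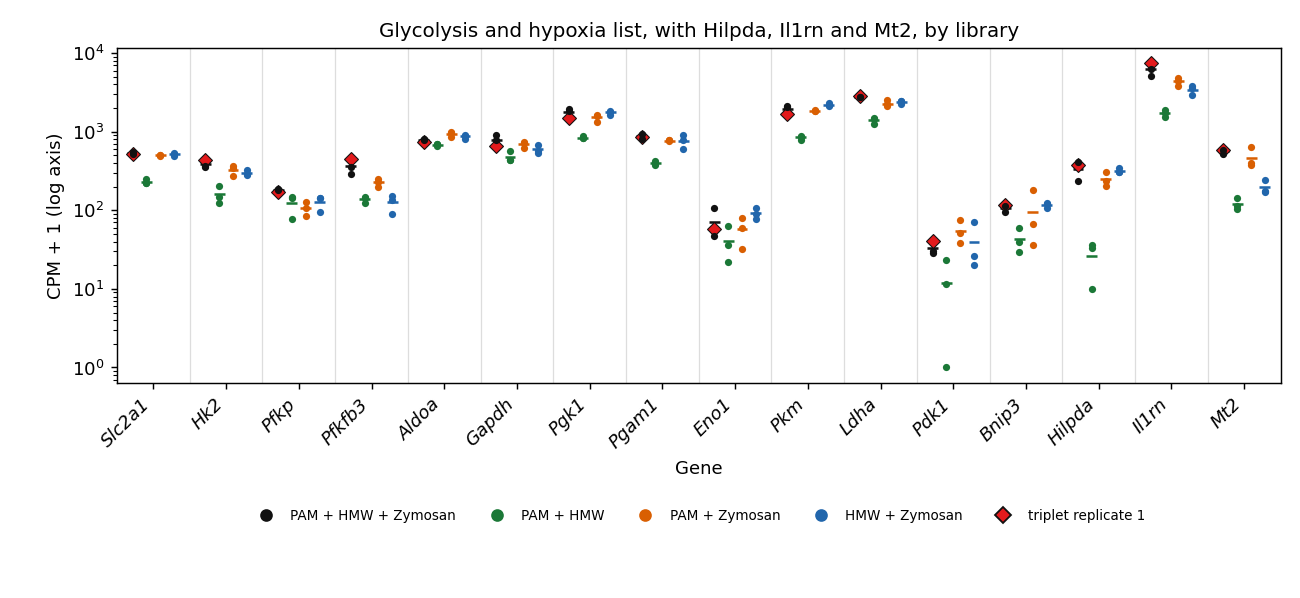
Level of each gene of the glycolysis and hypoxia list by library (CPM + 1, log axis) in the triplet and the 3 pairs, with Hilpda, Il1rn and Mt2 added; points are libraries, bars are group means and the diamond is triplet replicate 1. PAM + HMW is the lowest group for Slc2a1, Pgk1 and Pkm, while the triplet lies with the other pairs.

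The promoters of these genes were searched for ACGTG, the core letters of the hypoxia response element to which HIF-1 binds, on both strands (reverse complement CACGT) in the 250 bases before the start site of each RefSeq gene. The letters were present in 9 of the 13 genes of the list, against 16.6% of 32851 promoters of the same length and 18.5% of 27025 genes. The list was chosen by function and with earlier results of these data known, so this share is no test of HIF-1 here. Aldoa and Ldha, which were not called, were among the 9. Parts of a pair of promoters are shown because their genes were called with Zymosan added (RefSeq, GRCm38.p6, capitals mark the matches, 5′ to 3′ on the gene's strand). The Pgk1 stretch is chrX:106186925-106186998, plus strand, with matches 150 and 131 bases before the start, and the Slc2a1 stretch is chr4:119108684-119108738, plus strand, with its match 36 bases before the start.
Pgk1: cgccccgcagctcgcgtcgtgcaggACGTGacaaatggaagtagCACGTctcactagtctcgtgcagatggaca
Slc2a1: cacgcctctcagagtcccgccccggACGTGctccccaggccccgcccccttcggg
A match describes the letters in the window and not the binding of a factor.

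The largest rises with Zymosan added, among genes that passed with and without triplet replicate 1, were in Il10, Gm7120, Mid1, Nos2, Egln3, Hilpda, Gdf15 and Hbegf. Hilpda, a hypoxia-inducible regulator of lipid droplets, was at 372, 237 and 406 CPM in the triplet and 35.1, 8.94 and 31.7 CPM in PAM + HMW, with a log2 fold change of 3.74 (adjusted p = 3.51e-15, SE 0.40). All 4 groups with Zymosan had high Hilpda, with 249 ± 51.5 CPM in PAM + Zymosan, 318 ± 22.3 CPM in HMW + Zymosan (SD, n = 3) and 251 CPM in Zymosan alone. Gdf15, a stress-induced cytokine, was at 226, 113 and 296 against 14, 17.9 and 21.1 CPM (log2 fold change 3.47, adjusted p = 2.48e-15, SE 0.36). Hbegf, a growth factor of the EGF family, was at 97.4, 89.5 and 117 against 14, 8.94 and 7.05 CPM (log2 fold change 3.36). The triplet and pair libraries did not overlap for these genes, which the rule that names them requires. Egln3, a prolyl hydroxylase that marks HIF for degradation and is itself a hypoxia target, had 1 UMI over the 3 PAM + HMW libraries, a ratio of 20.6 with an exact 95% counting interval of 3.36 to 848, with 31, 27.2 and 36.6 CPM in the triplet. Mid1, a ubiquitin ligase, was at 48.7, 89.5 and 54.9 against 7.02, 0 and 3.52 CPM, which is 2 UMIs in the pair and a ratio of 21.1 (counting interval 5.53 to 179). Gm7120 was at 111, 77.9 and 73.2 against 0, 4.47 and 3.52 CPM, likewise 2 UMIs (ratio 27.9, counting interval 7.43 to 236). With the 12 libraries thinned to 92149 UMIs each, Egln3 no longer passed (adjusted p = 0.115).

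Il10, the anti-inflammatory cytokine interleukin-10, was at 79.7, 38.9 and 73.2 CPM in the triplet and at 0 in all 3 PAM + HMW libraries. Against the limit of 3 UMIs over that group the triplet was at least 13.8-fold higher (adjusted p = 1.52e-08). In HMW + Zymosan it had 1 UMI, in replicate 2, which gave a ratio of 38.1 (counting interval 6.53 to 1540). PAM + Zymosan stood between, at 42.1, 29.5 and 20.0 CPM, and was not called against the triplet (log2 fold change 1.16, adjusted p = 0.167, SE 0.50). Il1rn, the secreted antagonist of the interleukin-1 receptor, was at 7471, 5076 and 6352 CPM in the triplet and 1706, 1887 and 1539.9 CPM in PAM + HMW, with a log2 fold change of 1.88 (adjusted p = 9.57e-22, SE 0.16). Among 18 signalling brakes and NF-kB subunits, Il1rn, Ier3, Dusp1 and Cish rose with Zymosan added and none fell. Dusp1, a phosphatase that switches off MAP kinases, was at 261, 163 and 256 against 84.2, 17.9 and 56.4 CPM, a log2 fold change of 2.18. Cish, a suppressor of cytokine signalling, was at 93, 117 and 113 against 49.1, 22.4 and 21.1 CPM (log2 fold change 1.92, not passing after thinning to equal totals, adjusted p = 0.0729), and Ier3, an early-response survival gene, had a log2 fold change of 1.68.

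In the list of 12 Nrf2 and oxidative stress genes, 3 rose with Zymosan added and none fell (median log2 difference 0.49, or 0.59 without triplet replicate 1). Over all genes 4.77% were called in this comparison. Prdx6, a peroxiredoxin that reduces lipid peroxides, was at 695, 814 and 1072 CPM in the triplet and 239, 233 and 201 CPM in PAM + HMW (log2 fold change 1.96, adjusted p = 1.82e-18, SE 0.18). Its level was higher in the remaining pairs than in the triplet, at 1211, 1164 and 1179 CPM in PAM + Zymosan and 1863, 1469 and 1653 CPM in HMW + Zymosan, though neither difference reached 2-fold (log2 fold changes -0.45 and -0.94). Sqstm1, the autophagy adaptor p62, was at 1563, 1518 and 1566 against 688, 648 and 673 CPM, a log2 fold change of 1.21. Hmox1, heme oxygenase 1, was at 988, 1347 and 1459.9 against 646, 559 and 581 CPM, a log2 fold change of 1.10 that dropped to 0.98 without triplet replicate 3. Against the other pairs, members of the list that were called were lower in the triplet: Gclc, which makes the glutathione precursor, fell against PAM + Zymosan (log2 fold change -1.24) and HMW + Zymosan (-1.10). Gclc was at 57.6, 35 and 73.2 CPM in the triplet, 94.7, 177 and 119.9 CPM in PAM + Zymosan and 95.4, 112 and 142 CPM in HMW + Zymosan. Against HMW + Zymosan, Srxn1 (log2 fold change -1.02) and Nqo1 (-1.53) were also called lower. The Srxn1 call ended without triplet replicate 1 or HMW + Zymosan replicate 1, and the Nqo1 call without any 1 of the 6 libraries (adjusted p up to 0.304 over the alternatives), at log2 fold changes of -1.69 to -1.42. Without triplet replicate 2, Gclc passed in neither comparison (adjusted p = 0.0863 and 0.128), nor without PAM + Zymosan replicate 2 or HMW + Zymosan replicate 3 in the comparison with that pair (0.163 and 0.181).

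Of 11 genes tested in the Dectin-1 pathway list, 1 was called with Zymosan added, the receptor's own transcript, where 4.77% of all genes were called. Clec7a, which encodes Dectin-1, was at 598, 584 and 538 CPM in the triplet and 274, 201 and 324 CPM in PAM + HMW, a log2 fold change of 1.09 (adjusted p = 4.37e-08, SE 0.17). Its Ctrl level was higher than both, 975 ± 127 CPM (SD, n = 3), and HMW alone averaged 933 CPM. Without PAM + HMW replicate 2 the log2 fold change was 0.91, under the threshold. Of 15 lysosome and phagocytosis genes 1 was called, again near the share over all genes. Atp6v0d2, a subunit of the proton pump, rose from 140.4, 62.6 and 74 CPM in PAM + HMW to 248, 257 and 377 CPM (log2 fold change 1.78, adjusted p = 1.11e-10, SE 0.23), and it too was higher in Ctrl, at 472 ± 112 CPM. Of the maturation markers, Cd86, a costimulatory ligand for CD28, was called higher with Zymosan added (283, 117 and 201 against 91.3, 71.6 and 52.9 CPM, log2 fold change 1.53), as was Tnfsf9, the ligand of 4-1BB (log2 fold change 1.10), whose call ended on leaving out any 1 of 4 libraries other than triplet replicate 1 (adjusted p up to 0.132). Of 11 other chemokines, Ccl4, Ccl2 and Ccl7 rose and Cxcl3 fell. The Cxcl3 call ended without triplet replicate 1, and the Ccl7 call (log2 fold change 1.78, at least 1.43 in every alternative) ended without any 1 of 4 libraries, triplet replicates 1 and 3 and PAM + HMW replicates 1 and 2.

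The largest falls with Zymosan added were in Rufy1, Ppp1r21, Lad1, Adrbk2, Zfp811, Tmem181b-ps, Itsn1 and Dok1. Zfp811, a zinc finger gene, was at 35.4, 15.6 and 14.6 CPM in the triplet and 91.3, 67.1 and 106 CPM in PAM + HMW (log2 fold change -2.03, adjusted p = 0.000118, SE 0.42). It was at 70.3 CPM in PAM alone and at 0 in all 3 libraries of Zymosan alone. Dok1, an adaptor that restrains tyrosine kinase signalling, was at 26.6, 15.6 and 14.6 against 56.2, 98.4 and 49.3 CPM (log2 fold change -1.83), and Lad1 at 22.1, 11.7 and 14.6 against 56.2, 58.1 and 84.6 CPM (log2 fold change -2.06). The groups did not overlap, again by the naming rule. The calls of Rufy1, Tmem181b-ps, Itsn1 and Adrbk2 each ended without some single library other than triplet replicate 1 (adjusted p up to 0.165, 0.269, 0.0988 and 0.0807). Thinning to equal totals ended the calls of Lad1 and Ppp1r21 (adjusted p = 0.29 and 0.18) and of Rufy1, Itsn1 and Tmem181b-ps. Osbpl3, a lipid-binding protein, fell as well, at 75.3, 62.3 and 87.8 against 246, 282 and 236 CPM (log2 fold change -1.75, adjusted p = 1.04e-08, SE 0.25), and is named here, after its values were seen, because it also fell against PAM + Zymosan (log2 fold change -1.28).

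Among the genes whose call in this comparison ended without triplet replicate 1, Rsad2, Gpr84 and Ifit2 had the smallest p-values. Rsad2, the antiviral protein viperin, was at 7135, 2118 and 3981 CPM in the triplet and 2057, 2321 and 1674 CPM in PAM + HMW. Its log2 fold change fell from 1.13 to 0.60 without that library, and that of Ifit2, an interferon-induced RNA-binding protein, from 1.15 to 0.56. The libraries of triplet and pair overlapped for both genes. The 3 interferon-response genes called with Zymosan added, Rsad2, Ifit2 and Ifi44, were all lost in this way, and the list's median log2 difference went from 0.63 to 0.17. Gpr84, a receptor for medium-chain fatty acids, was at 288, 502 and 318 against 723, 805 and 758 CPM, a log2 fold change of -1.04 that became -0.90, and -0.94 without triplet replicate 3.

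Adding HMW to PAM + Zymosan went with higher levels of the whole interferon-response list. All 15 of its genes were called higher, with a median log2 difference of 2.62 against -0.04 over all genes. Without triplet replicate 1 the list kept 14 calls and a median of 1.97, Ifi44 being the one lost (log2 fold change 1.58, adjusted p = 0.107). No gene of the inflammatory list was called (0 of 13, median 0.21, or 0.13 without that replicate) and none of the glycolysis list (0 of 13, median 0.20, or 0.26). With 5.47% of all genes called in this comparison, 0 of 13 is near that share.

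Ifit1, an interferon-induced protein that binds viral RNA, was at 2945, 1238 and 1848 CPM in the triplet and 358, 302 and 289.7 CPM in PAM + Zymosan. The lowest triplet library was over 3 times the highest pair library, with a log2 fold change of 2.69 (adjusted p = 1.49e-31, SE 0.18), or 2.31 without replicate 1. Its means were 1377 ± 229 CPM in PAM + HMW and 969 ± 289 CPM in HMW + Zymosan (SD, n = 3), and 344, 480.5, 376 and 218 CPM with PAM, HMW, Zymosan and in Ctrl. Rsad2 was at 674, 788 and 679 CPM in PAM + Zymosan against the triplet values above, a log2 fold change of 2.62 (adjusted p = 1.89e-31, SE 0.18). Irf7, the transcription factor that amplifies interferon production, was at 1413, 654 and 922 against 126, 155 and 129.8 CPM (log2 fold change 2.85, adjusted p = 9.84e-26, SE 0.22). Isg15, a ubiquitin-like modifier, was at 1554, 596 and 790.3 against 253, 273 and 195 CPM (log2 fold change 2.05). Usp18, which removes that modifier and restrains the interferon receptor, was at 762, 311 and 402 against 73.7, 81 and 59.9 CPM (log2 fold change 2.79), and Cxcl10 was at 411, 361 and 339.6 CPM in the pair (log2 fold change 2.72, or 1.88 without replicate 1). In all 6 genes each triplet library exceeded each PAM + Zymosan library, as it did in 12.3% of all genes (10% lay all below). Ifi44 was the exception in the list, since replicate 2 of the triplet, at 15.6 CPM, lay within the pair's 31.6, 7.37 and 25 CPM.

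**Figure D3:**
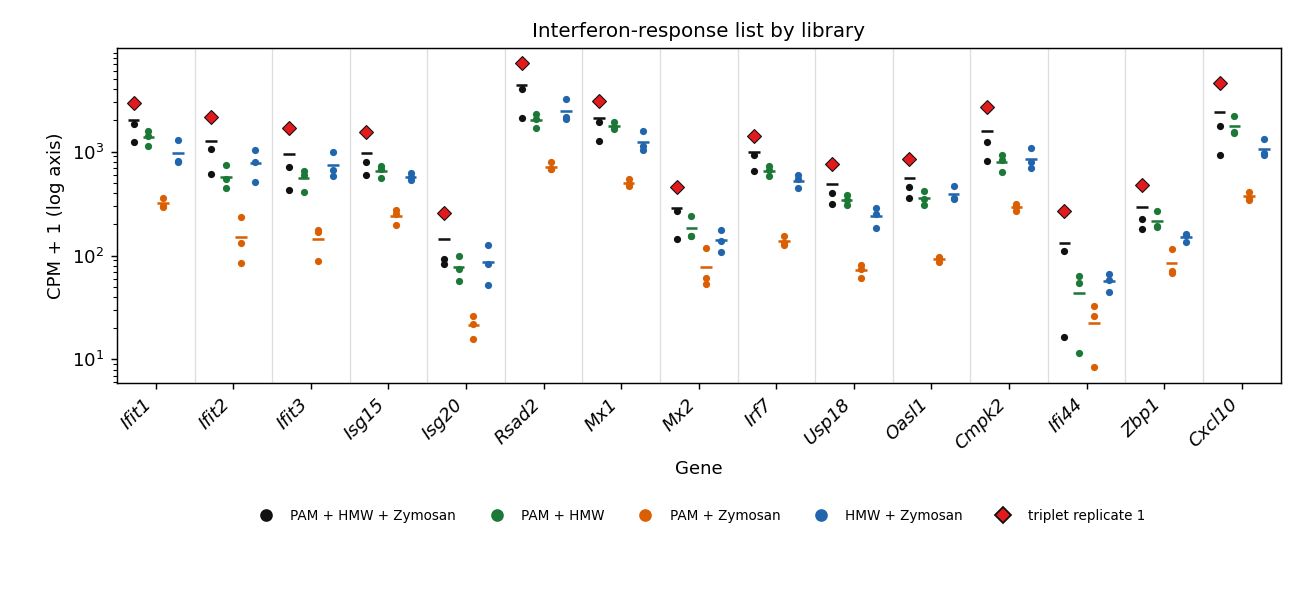
Level of each gene of the interferon-response list by library (CPM + 1, log axis) in the triplet and the 3 pairs; points are libraries, bars are group means and the diamond is triplet replicate 1. PAM + Zymosan is the lowest group for each gene, and triplet replicate 1 is the highest library of the 12 for each gene.

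The interferon-stimulated response element, the site bound by the interferon-activated factor ISGF3, was searched as GAAA, any 2 bases and GAAA again (reverse complement TTTC, any 2 bases and TTTC) on both strands in the same windows. A RefSeq promoter was matched for 11 of the 15 genes, and 5 of these held the letters, namely Ifit1, Ifit3, Isg15, Rsad2 and Cxcl10, against 2.98% of all promoters and 3.46% of genes. The stretches around the matches are printed for 4 genes of the list that were called with HMW added (RefSeq, GRCm38.p6, 5′ to 3′ on the gene's strand, matches in capitals). They are chr19:34640760-34640838 on the plus strand (104 and 85 bases before the start), chr19:34583348-34583441 on the plus strand (156 and 122 bases), chr12:26456538-26456597 on the minus strand (120 bases) and chr4:156200850-156200921 on the minus strand (3 overlapping matches, 78, 72 and 66 bases before the start).
Ifit1: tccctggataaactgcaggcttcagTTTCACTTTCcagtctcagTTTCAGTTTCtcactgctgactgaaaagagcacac
Ifit3: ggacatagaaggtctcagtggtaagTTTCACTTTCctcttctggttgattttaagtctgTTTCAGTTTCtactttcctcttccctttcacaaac
Rsad2: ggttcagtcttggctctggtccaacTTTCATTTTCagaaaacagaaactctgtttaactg
Isg15: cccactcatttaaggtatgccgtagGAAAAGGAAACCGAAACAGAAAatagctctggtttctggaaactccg
The absence of the letters in a window says nothing about the factor. This list too was chosen by function, so its share of matches is no test of ISGF3 here.

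Some genes that process peptides for MHC class I and some that sense viral RNA rose with HMW added as well, where 5.47% of all genes were called. Of 10 class I genes 5 rose, and Tap1, Tap2 and Psmb10 passed also without triplet replicate 1. Tap1, a subunit of the peptide transporter, was at 469, 327 and 381 CPM in the triplet and 63.2, 95.8 and 64.9 CPM in PAM + Zymosan, a log2 fold change of 2.38 (adjusted p = 1.85e-18, SE 0.23). Tap2, its partner, was at 186, 148 and 176 against 42.1, 66.3 and 74.9 CPM (log2 fold change 1.38) and Psmb10, a subunit of the immunoproteasome, at 461, 261 and 256 against 73.7, 147 and 125 CPM (log2 fold change 1.42). The calls of Psmb8 and Psmb9, the remaining immunoproteasome subunits, ended without triplet replicate 1 and without some other single libraries. Among 11 Toll-like receptors and RNA sensors, the 3 cytosolic helicases that detect viral RNA rose. Ddx58, which encodes RIG-I, was at 664, 311 and 435 against 63.2, 88.4 and 79.9 CPM (log2 fold change 2.55, adjusted p = 1.88e-19, SE 0.24). Ifih1, which encodes MDA5, was at 859, 346 and 512 against 147, 118 and 94.9 CPM (log2 fold change 2.30), and Dhx58, which encodes LGP2, at 248, 152 and 183 against 42.1, 29.5 and 59.9 CPM (log2 fold change 2.04). All 3 helicases passed without triplet replicate 1, at 2.24, 1.91 and 1.84. No Toll-like receptor was called.

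The largest rises with HMW added that passed with and without triplet replicate 1 were in Adap2, Psme4, Ms4a4c, Gm5431, Ifit2, Ifi205, Fcgr1 and Oasl2. Adap2 was at 53.1, 11.7 and 25.6 CPM in the triplet and at 0 in all 3 PAM + Zymosan libraries, at least 4.18-fold higher by the limit of 3 UMIs over the pair, and it did not pass after thinning (adjusted p = 0.0899). Psme4, a proteasome activator, had 1 UMI over the pair, a ratio of 16.0 (counting interval 2.64 to 653). Ifi205, an interferon-inducible DNA sensor of the p200 family, was at 478, 249 and 348 against 31.6, 51.6 and 44.9 CPM (log2 fold change 2.99, adjusted p = 1.38e-16, SE 0.31). Oasl2, a member of the oligoadenylate synthetase family, was at 1244, 646 and 798 against 73.7, 139.9 and 135 CPM (log2 fold change 2.86, adjusted p = 5.16e-27, SE 0.21). Fcgr1, the high-affinity IgG receptor and a marker used above for macrophages, was at 394, 74 and 157 against 31.6, 14.7 and 30.0 CPM, and its log2 fold change went from 2.95 to 2.16 without replicate 1. Ifit2 was at 2157, 615 and 1065 against 84.2, 236 and 129.8 CPM (log2 fold change 3.04). Ms4a4c moved most with that library, from 3.16 to 1.86, and Gm5431 had 3 UMIs in the pair, a ratio of 9.31 (counting interval 3.00 to 46.7). Several of these genes have near-identical relatives, and the treatment of reads that match more than 1 gene is not given in the sources used here, so the values of Ifi205, Ms4a4c, Gm5431, Gm7120, Gbp4 and Tmem181b-ps carry that uncertainty.

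Of 11 other chemokines Ccl5, Ccl4 and Ccl2 rose with HMW added, and Ccl5 alone without triplet replicate 1. The Ccl2 call also ended without PAM + Zymosan replicate 3. Ccl5, a chemokine for T cells, went from 4306, 4066 and 4445 CPM to 17055, 8323 and 10736 CPM (log2 fold change 1.49, adjusted p = 8.3e-18, SE 0.15). Gbp2, an interferon-inducible GTPase active against intracellular microbes, was at 2050.5, 1199 and 1277 against 442, 626 and 584 CPM (log2 fold change 1.42). Ch25h, which makes the antiviral sterol 25-hydroxycholesterol, was at 341, 140.1 and 179 against 63.2, 88.4 and 44.9 CPM (log2 fold change 1.77). Of 10 maturation genes, Il15, a cytokine that sustains natural killer and memory T cells, was at 195, 81.7 and 91.5 against 42.1, 7.37 and 25 CPM (log2 fold change 2.33), and Cd86 had 73.7, 103 and 40.0 CPM in the pair (log2 fold change 1.54). The Cd86 call ended without PAM + Zymosan replicate 3 (adjusted p = 0.058), and that of Cd40, a receptor for T cell help, without triplet replicate 1 (log2 fold change 1.24, then 0.79). Irg1, Cfb and Ccl4 had the smallest p-values among the calls lost without that replicate, at log2 fold changes of 1.04, 1.06 and 1.15 with it and 0.92, 0.86 and 0.91 without it. Irg1, which makes itaconate, was at 3791, 3036 and 2986 against 1284, 1694 and 1743 CPM, and Cfb, complement factor B, at 1869, 1211 and 1361 against 768, 678 and 694 CPM. The triplet lay all above the pair in both, as in 12.3% of all genes. The Irg1 call also ended without PAM + Zymosan replicate 1.

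Fewer genes fell than rose with HMW added. In a simulation of the comparison with PAM + HMW, the fit called 74% of genes at a log2 change of -2 and 100% at 2. Falls are thus harder to call. The PAM + Zymosan libraries were also shallower, at 92149 to 195442 UMIs against 247049 to 285614 in the triplet. How far this shaped the counts was not tested. Mknk2, a kinase that phosphorylates the cap-binding factor eIF4E, was at 4.43, 23.4 and 14.6 CPM in the triplet and 73.7, 95.8 and 89.9 CPM in PAM + Zymosan, a log2 fold change of -2.54 (adjusted p = 2.08e-05, SE 0.49). Ercc6, a DNA repair factor, was at 17.7, 23.4 and 18.3 against 94.7, 58.9 and 79.9 CPM (log2 fold change -1.91). Tcp1, a subunit of the TRiC chaperonin, was at 35.4, 46.7 and 73.2 against 147, 118 and 139.8 CPM (log2 fold change -1.34), and Osbpl3 at 75.3, 62.3 and 87.8 against 179, 155 and 209.8 CPM. Triplet and pair did not overlap, as the naming rule requires. The other falls that the naming rule gives, in Kcnq1ot1, 1810033B17Rik, Gabpb2 and Mroh1, each ended without some single PAM + Zymosan library (adjusted p = 0.163, 0.124, 0.223 and 0.285). In libraries thinned to equal totals, Ercc6 and Tcp1 did not pass either (adjusted p = 0.15 and 0.102).

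Adding PAM to HMW + Zymosan went with higher levels of the inflammatory cytokines and chemokines. Of 13 inflammatory genes tested, 11 rose and none fell, with a median log2 difference of 2.42 against -0.01 over all genes. Without triplet replicate 1 the list kept 10 calls and a median of 2.36, Tnfaip3 being lost, as it was without HMW + Zymosan replicate 2. In the interferon-response list 4 of 15 genes were called, Ifit1, Cxcl10, Usp18 and Ifi44, and none of them without that library, where the median went from 0.85 to 0.28. All of these but Cxcl10 were also lost without some single HMW + Zymosan library. Over all genes 5.85% were called, or 4.05% without triplet replicate 1.

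Il1b, interleukin-1 beta, was at 9207, 9089.6 and 9012 CPM in the triplet and 1164, 879 and 949 CPM in HMW + Zymosan. The triplet libraries differed little from each other and lay far above the pair (11.7% of all genes lay all above it and 11.3% all below), with a log2 fold change of 3.20 (adjusted p = 2.87e-62, SE 0.13). PAM + HMW, PAM + Zymosan and PAM alone were at 11138 ± 439.7, 8544 ± 371 and 8129.7 ± 506 CPM (SD, n = 3). Il6, interleukin-6, was at 2617, 1487 and 1767 against 146, 165 and 161 CPM (log2 fold change 3.62, adjusted p = 1.09e-47, SE 0.18, and 3.36 without replicate 1). Cxcl1, a neutrophil chemokine, was at 1231, 1433 and 1259 against 223, 230.2 and 270.0 CPM (log2 fold change 2.42, adjusted p = 3.84e-22, SE 0.21). Its level in the triplet was below that of PAM + HMW, at 2275, 1860.4 and 2178 CPM, by less than 2-fold (log2 fold change -0.68). Il1a was at 5421, 4609 and 4673 against 897, 661 and 909 CPM (log2 fold change 2.57), Ccl3, which draws monocytes, at 10881, 6906 and 7666 against 1609, 1209.8 and 1452 CPM (2.57), and Ptgs2, the inducible cyclooxygenase, at 1036, 658 and 779 against 127, 142 and 120.4 CPM (2.67). Tnf, tumour necrosis factor, was at 12307, 10362 and 11592 CPM in the triplet and 5640.3, 5223 and 5433 CPM in the pair (log2 fold change 1.07). The log2 difference of Tnf was 0.91 under scaling by library size alone, which ends its call. Il12b, a subunit of interleukin-12, was at 53.1, 7.79 and 22 against 12.7, 5.90 and 7.30 CPM and was not called (adjusted p = 0.379).

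**Figure D4:**
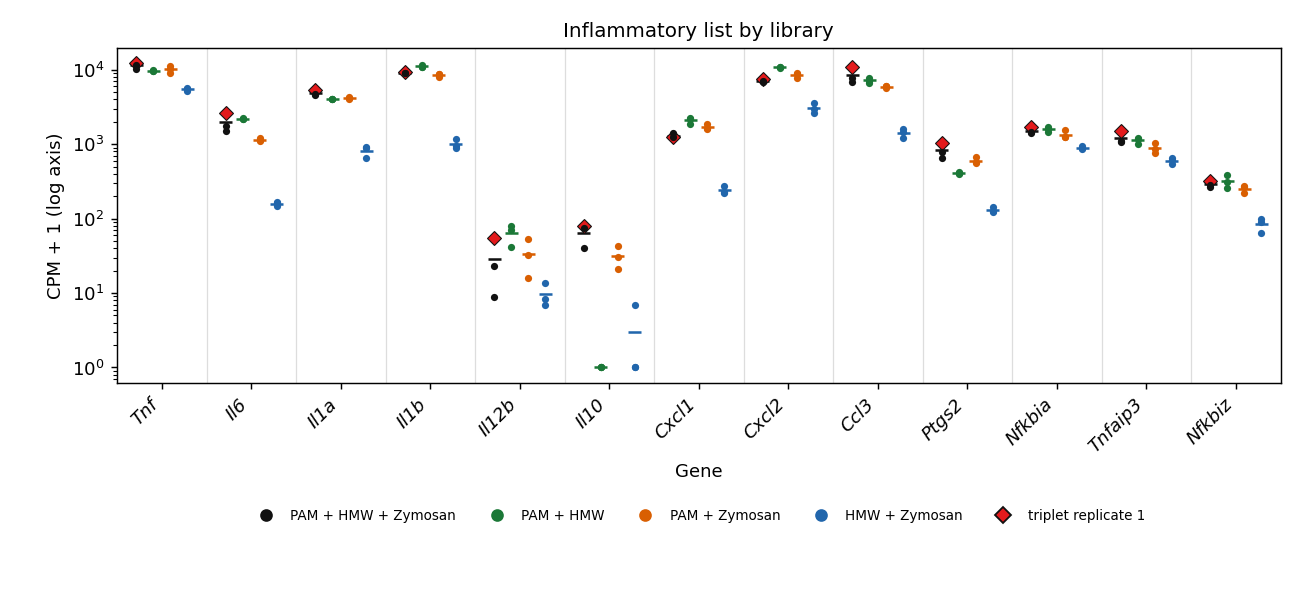
Level of each gene of the inflammatory list by library (CPM + 1, log axis) in the triplet and the 3 pairs; points are libraries, bars are group means and the diamond is triplet replicate 1. HMW + Zymosan is far below the other 3 groups for Il1b, Il6 and Cxcl1, and the triplet lies near the pairs that hold PAM.

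The kB site bound by NF-kB was searched as GGGA, any 1 base and TTTCC (reverse complement GGAAA, any 1 base and TCCC) on both strands in the same 250 bases. It was present in 4 of the 11 inflammatory genes with a RefSeq promoter, Il6, Cxcl1, Cxcl2 and Nfkbia, against 0.356% of all promoters and 0.414% of genes. The inflammatory list was likewise chosen by function, so this share is no test of NF-kB here. The stretches of a pair of genes called with PAM added are printed (RefSeq, GRCm38.p6, 5′ to 3′ on the gene's strand, the match in capitals). That of Il6 is chr5:30013045-30013104, plus strand, 44 bases before the start, and that of Cxcl1 is chr5:90891149-90891208, plus strand, 71 bases before the start.
Il6: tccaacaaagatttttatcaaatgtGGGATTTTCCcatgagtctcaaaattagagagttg
Cxcl1: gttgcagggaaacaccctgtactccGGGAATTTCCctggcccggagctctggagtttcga
Nfkbia, which encodes the NF-kB inhibitor IkB-alpha and also holds the letters, was at 1705, 1448 and 1401 against 954, 856 and 887 CPM and did not reach 2-fold (log2 fold change 0.76).

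The largest rises with PAM added were in Car4, Il10, U90926, Nos2, Saa3, Cp, Timp1 and Il6. Saa3, an acute-phase serum amyloid, was at 8259, 7614 and 8134 CPM in the triplet and 496, 519 and 580.1 CPM in HMW + Zymosan (log2 fold change 3.90, adjusted p = 1.09e-47, SE 0.20). It was higher still in PAM + HMW, at 12412, 11216 and 12485 CPM, without a call (log2 fold change -0.59). Car4, a membrane-bound carbonic anhydrase, was at 97.4, 144 and 109.8 CPM and had 1 UMI over the HMW + Zymosan libraries, a ratio of 70.7 (counting interval 12.4 to 2820). Cp, the copper-binding ferroxidase ceruloplasmin, was at 230.3, 159.6 and 146 against 6.36, 11.8 and 18.2 CPM (log2 fold change 3.66). Timp1, an inhibitor of metalloproteinases, was at 93, 46.7 and 76.8 against 12.7, 5.90 and 0 CPM, 3 UMIs in the pair (ratio 14.3, counting interval 4.64 to 71.5), and U90926 at 376, 175 and 190.3 against 12.7, 11.8 and 14.6 CPM (log2 fold change 4.12). Of 11 effector enzymes and antimicrobial proteins, Saa3, Lcn2, Slc7a2, Nos2, Ptges and Ch25h rose and none fell. Lcn2, which withholds iron from bacteria by binding siderophores, was at 775, 701 and 644 against 127, 76.7 and 117 CPM (log2 fold change 2.70). Slc7a2, an arginine transporter, was at 2104, 2211 and 1932 against 827, 744 and 843 CPM (1.37), and Ptges, a prostaglandin E synthase, at 208, 187 and 146 against 57.2, 47.2 and 47.4 CPM (1.83).

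Signalling brakes rose together with the cytokines when PAM was added. Of 18 brakes and NF-kB subunits 9 rose and none fell (median log2 difference 0.94, or 0.83 without triplet replicate 1), and all but Nfkb1, which was also lost without HMW + Zymosan replicate 1, passed without triplet replicate 1. Socs3, which blocks signalling by the interleukin-6 receptor family, was at 864, 849 and 904 CPM in the triplet and 82.7, 124 and 131 CPM in HMW + Zymosan, a log2 fold change of 2.91 (adjusted p = 2.02e-33, SE 0.19). Socs1, which blocks interferon signalling, was at 283, 183 and 219.5 against 38.2, 35.4 and 47.4 CPM (log2 fold change 2.43). Zc3h12a, an endonuclease that degrades cytokine messages, was at 319, 369.8 and 315 against 76.3, 59 and 80.3 CPM (2.19), and Dusp16, a phosphatase for JNK, at 93, 54.5 and 84.2 against 6.36, 17.7 and 14.6 CPM (2.47). For these 4 genes the triplet libraries lay all above the pair, as they did for 11.7% of all genes (11.3% lay all below). The call of Irak3, an inhibitor of Toll-like receptor signalling, ended on leaving out any 1 of 3 libraries other than triplet replicate 1 (adjusted p up to 0.124).

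Of 11 other chemokines, 7 rose with PAM added and none fell, with a median log2 difference of 1.64, or 1.38 without triplet replicate 1. Ccl17, a chemokine for CCR4-bearing T cells, was at 190.4, 331 and 263 CPM in the triplet and 19.1, 41.3 and 21.9 CPM in HMW + Zymosan (log2 fold change 3.27, adjusted p = 4.26e-17, SE 0.33). Ccl22, which acts on the same receptor, was at 717, 926 and 893 against 235, 389.5 and 398 CPM (log2 fold change 1.28). Ccl5 was at 3974, 3305 and 4247 CPM in the pair (log2 fold change 1.64). Cxcl3, a neutrophil chemokine, was at 3902, 6707 and 5009 CPM in the triplet, between 1539, 1523 and 1368 CPM in HMW + Zymosan (log2 fold change 1.82) and 11345, 10111 and 11368 CPM in PAM + HMW (log2 fold change -1.07, or -0.90 without triplet replicate 1, where it was not called). Replicate 1 was the lowest of the 3 triplet libraries for Cxcl3. Ccl7, a monocyte chemokine, lost its call without HMW + Zymosan replicate 3 and without triplet replicate 1 (log2 fold change 2.46, then 2.22, adjusted p = 0.054). Of the receptors, Cd14, the co-receptor for lipopolysaccharide and lipopeptides, rose with PAM added, from 865, 655 and 763 to 2236, 1822 and 1800.2 CPM (log2 fold change 1.36). It was 1 of 11 sensors tested, near the 5.85% of all genes called in this comparison. Cd40 was at 917, 479 and 384 CPM in the triplet against 153, 189 and 171 CPM (log2 fold change 1.77).

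Fewer genes fell than rose with PAM added under TMM scaling, where falls are again harder to call than rises. Cd300lb, an activating receptor of myeloid cells, was at 8.86, 7.79 and 3.66 CPM in the triplet and 127, 124 and 157 CPM in HMW + Zymosan, a log2 fold change of -4.24 (adjusted p = 5.8e-12, SE 0.52). In Ctrl it was at 289 ± 48.3 CPM and in PAM + HMW and PAM + Zymosan at 10.9 ± 8.93 and 12 ± 10.8 CPM (SD, n = 3). Slc43a2, an amino acid transporter, was at 17.7, 42.8 and 51.2 against 178, 236 and 208 CPM (log2 fold change -2.42, adjusted p = 2.13e-10, SE 0.33), and Rgs2, which dampens G protein signals, at 17.7, 23.4 and 22 against 139.9, 129.8 and 94.9 CPM (-2.44). Slc37a2, a sugar phosphate transporter, was at 0, 7.79 and 7.32 against 50.9, 59 and 51.1 CPM (-3.17), and Lair1, an inhibitory receptor for collagen, at 0, 27.2 and 11 against 69.9, 70.8 and 87.6 CPM (-2.49). The remaining falls that the naming rule gives were in Hip1, Haus8 and 4931406C07Rik. Fos, a subunit of the AP-1 factor, fell too, at 8.86, 19.5 and 3.66 against 38.2, 64.9 and 54.7 CPM (log2 fold change -2.25). Of 9 immediate early factors tested, Fos and Egr2 were called lower and Ier2 higher, and Egr2 was lost without triplet replicate 1. The Ier2 call ended without HMW + Zymosan replicate 2 and after thinning (log2 fold change 0.65, adjusted p = 0.55). The Hip1 call ended without triplet replicate 2 (adjusted p = 0.0522), and thinning to equal totals ended those of Hip1, Slc37a2 and 4931406C07Rik (adjusted p = 0.102, 0.145 and 0.496). Cd274, Slc15a3 and Tnfaip3 had the smallest p-values among the calls lost without triplet replicate 1: their log2 fold changes were 1.05, 1.03 and 1.02 with it and 0.96, 0.84 and 0.84 without it. The Cd274 call also ended without HMW + Zymosan replicate 1 or 2.

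To ask what the triplet had beyond each of its pairs, a gene was called above all 3 pairs when it exceeded each by at least 2-fold and the largest of its 3 p-values passed after adjustment. With all libraries 7 genes were called (0.148% of 4720): Ccl4, Nos2, Edn1, Serpina3g, Wars, Gbp4 and Ccl2. Without triplet replicate 1 none was called, with 38 genes at an unadjusted p under 0.05 against 136 with all libraries. DESeq2 called 2 genes and the fit of the 12 libraries alone 3. No gene was called below all 3 pairs by edgeR's quasi-likelihood test (25 genes at an unadjusted p under 0.05) or by DESeq2.

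Ccl4, a chemokine for monocytes and natural killer cells, was at 15115, 8560.1 and 11292 CPM in the triplet, 4612, 4539 and 4570.5 CPM in PAM + HMW, 5200.4, 5591 and 5014 CPM in PAM + Zymosan and 2868, 2284 and 2813 CPM in HMW + Zymosan. Every triplet library exceeded all 9 pair libraries. Its smallest log2 fold change, against PAM + Zymosan, was 1.15 (adjusted p = 6.28e-09), and without triplet replicate 1 it was 0.91 (adjusted p = 0.00019), under the 2-fold threshold. Its three-way interaction, the part of its log2 level in the triplet that the pairs, single ligands and Ctrl do not add up to, was negative and did not pass, at -1.19 (adjusted p = 0.289), and -1.42 (adjusted p = 0.0858) without that replicate. With no fold threshold 27 genes passed, and without that replicate 2 did, Ccl4 and Cd274, an inhibitory ligand for the receptor PD-1, which also passed in the 27. Cd274 was at 1833, 1436 and 1592 CPM in the triplet and averaged 870.0 ± 158, 922 ± 58.2 and 764 ± 182 CPM in PAM + HMW, PAM + Zymosan and HMW + Zymosan (SD, n = 3).

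Nos2, the inducible nitric oxide synthase, was at 155, 70.1 and 76.8 CPM in the triplet, 0, 13.4 and 3.52 CPM in PAM + HMW, 10.5, 29.5 and 4.99 CPM in PAM + Zymosan and 6.36, 0 and 7.30 CPM in HMW + Zymosan. The lowest triplet library was over 2-fold above the highest pair library, and all single-ligand means lay at or below 7.90 CPM. Its smallest log2 fold change was 2.76 (adjusted p = 0.00151), and 2.34 (adjusted p = 0.253) without triplet replicate 1. In each single comparison Nos2 was called also without that library, with log2 fold changes of 3.43 against PAM + HMW and 2.34 against PAM + Zymosan. HMW + Zymosan held 3 UMIs of Nos2, a ratio of 19.6 with all libraries (counting interval 6.45 to 97.2). Edn1, the vasoactive peptide endothelin-1, was at 536, 354 and 381 CPM in the triplet and at 63.2, 107 and 81 CPM in PAM + HMW, 253, 118 and 175 CPM in PAM + Zymosan and 89, 41.3 and 73 CPM in HMW + Zymosan, with every triplet library above all pair libraries. Its smallest log2 fold change went from 1.26 (adjusted p = 0.0038) to 1.07 (adjusted p = 0.268), and it too was called in each single comparison without replicate 1, with log2 fold changes of 2.09, 1.07 and 2.42 in that order of pairs.

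For the other genes called above all 3 pairs the adjusted p was 1 without replicate 1. Wars, the tryptophanyl-tRNA synthetase, was at 235, 85.6 and 128 CPM in the triplet, and its smallest log2 fold change was 1.56, or 1.11 without that library. All 3 triplet libraries lay above every pair library, and its pair means were 48.7 ± 8.39, 50.8 ± 10.7 and 41.6 ± 40.2 CPM (SD, n = 3). Serpina3g, a protease inhibitor, was at 757, 167 and 333 CPM against 176, 215 and 179.7 CPM in PAM + HMW, and its smallest log2 fold change was 1.10, or 0.40 without replicate 1. Gbp4, an interferon-inducible GTPase, went from 1.19 to 0.36, and Ccl2, a monocyte chemokine at 376, 132 and 179 CPM, from 1.26 to 0.74. Triplet replicate 2 lay within the range of a pair for Serpina3g, Gbp4 and Ccl2. Leaving out PAM + Zymosan replicate 3 reduced the 7 genes to 3, ending the calls of Nos2, Edn1, Wars and Ccl2, and leaving out triplet replicate 2 or 3 raised the count to 26 or 11.

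**Figure D5:**
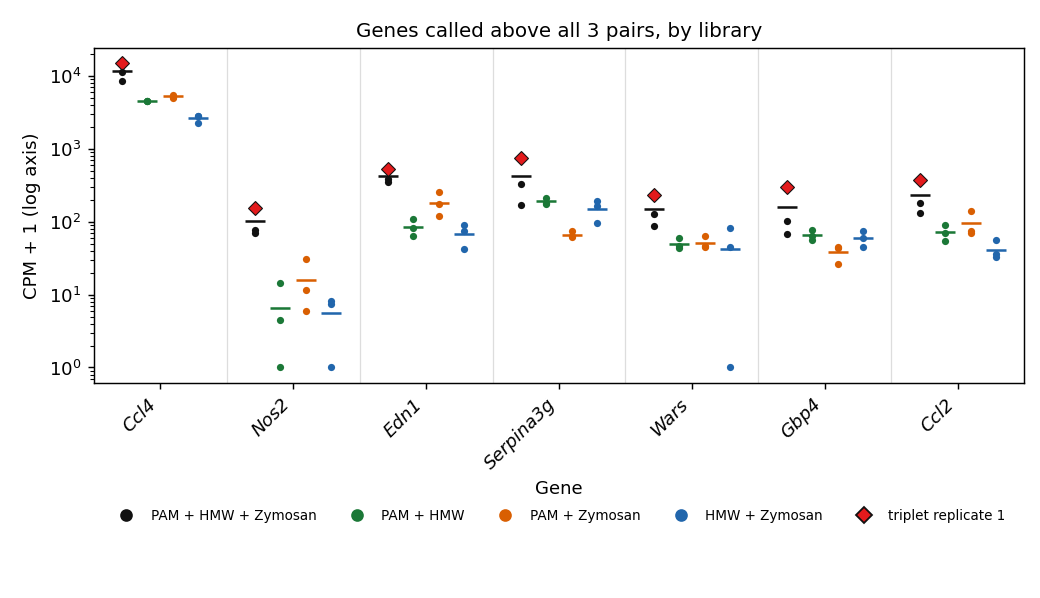
Level of the 7 genes called above all 3 pairs by library (CPM + 1, log axis) in the triplet and the 3 pairs; points are libraries, bars are group means and the diamond is triplet replicate 1. Triplet replicate 1 is the highest library for each gene, while for Ccl4, Nos2, Edn1 and Wars the other triplet libraries also lie above every pair library.

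A three-way interaction, the part of the triplet's log2 level that its pairs, single ligands and Ctrl do not add up to, passed for 2 genes (0.0424%) and for 1 (0.0212%) without triplet replicate 1. Cops2, a subunit of the COP9 signalosome, had an interaction of 4.30 (SE 0.90, adjusted p = 0.0164), and 4.18 (adjusted p = 0.0428) without triplet replicate 1. It was at 88.6, 93.4 and 47.6 CPM in the triplet and averaged 38.9, 37.2 and 43.4 CPM in the pairs, 80.7, 60.3 and 62.1 CPM with PAM, HMW and Zymosan and 20.3 CPM in Ctrl. The highest means were thus in the triplet and PAM alone. Oas2, an antiviral oligoadenylate synthetase, had an interaction of 4.50 (SE 1.03, adjusted p = 0.0456), and 4.33 (adjusted p = 0.0858) without that replicate. Its levels were 204, 128 and 161 CPM in the triplet, 49.1, 98.4 and 95.1 CPM in PAM + HMW, 0, 29.5 and 49.9 CPM in PAM + Zymosan, 102, 59 and 124 CPM in HMW + Zymosan and 0, 12.5 and 9.60 CPM in Ctrl. The Ctrl libraries held only 61823, 68941 and 89530 UMIs. The Ctrl levels of Cops2 and Oas2, which enter these interactions, thus rest on few UMIs. Stat2, a subunit of the interferon-activated factor ISGF3, was next and did not pass (interaction 2.02, SE 0.51, adjusted p = 0.161). Without PAM + HMW replicate 3 or PAM + Zymosan replicate 2 no interaction passed, and without triplet replicate 2 there were 6.

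No gene of the MHC class II (7 tested), cholesterol synthesis (12) or cell cycle (3) lists was called in any of the 3 comparisons with all libraries, at medians of -0.49 to 0.31, or -0.52 to 0.39 without triplet replicate 1. Over all genes 4.77%, 5.47% and 5.85% were called against PAM + HMW, PAM + Zymosan and HMW + Zymosan. In lists this short, 0 calls is near those shares. Without triplet replicate 1, Hmgcs1, an early enzyme of cholesterol synthesis, was called lower than in HMW + Zymosan (log2 fold change -1.12, adjusted p = 0.0384, -0.85 with all libraries). In the same setting Icam1, an adhesion molecule, and Tlr1, a lipopeptide receptor, were called lower than in PAM + HMW (log2 fold changes -1.0 and -1.31, against -0.82 and -0.90).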

How the data were processed

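Gene counts of unique molecular identifiers were used as the authors deposited them, 1 table for all libraries; reads were aligned with BWA 0.7.15 to mm10, per the submitters' processing notes. The annotation, the collapsing of identifiers, the use of strand and how reads with several matching genes were counted are not given in the sources used here.

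Libraries were grouped by their labels. Genes were kept by edgeR's filterByExpr by group (4720 of 23481, with 95.7% of the UMIs), scaled by TMM and fitted with edgeR 4.0.16 (R 4.3.3) in 1 quasi-likelihood model of all 64 groups, with 128 residual degrees of freedom and a common biological coefficient of variation of 10.3%. All p-values, adjusted ones included, come from edgeR's quasi-likelihood F-test with Benjamini-Hochberg adjustment over the genes tested, except where DESeq2 1.42.0 is named. Tested on simulated counts for the triplet against PAM + HMW (4720 genes, 200 changed), the fit called 100% of genes at a log2 change of 2, 74% at -2, 44% at 1 and 34% at -1, with 7 false calls. The simulation gave every gene the same biological spread and held no outlying library. Its false calls therefore do not measure those in the real data.

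Named genes are list members and, per comparison, the 8 largest rises and 8 largest falls that passed with and without triplet replicate 1, had at least 20 CPM in the higher group and did not overlap, plus the 3 smallest p-values among calls lost without that replicate. The members and lists were chosen with earlier results of these data known. A group at 0 was set to the limit of 3 UMIs over the group. Intervals and limits cover counting error only.

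Equal replicate numbers did not pair the libraries: correlations of same-numbered deviations between triplet and pairs ran from -0.0713 to 0.0565. Alternatives were other scalings, no filter, thinning, the 12 libraries alone, DESeq2, no fold threshold, a replicate block and leaving out each of the 12 libraries.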

Additional observations from a re-analysis of the deposited data

How the results depend on the processing

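Over 160 calls (named genes and list members against a pair, and the 2 interactions), 97 held under every alternative run, 63 were lost under at least 1 and none reversed, a tally partly fixed by the naming rule, which uses the calls without triplet replicate 1. Over all genes, 118 higher and 39 lower calls against PAM + HMW were made both with and without that replicate, 146 and 12 against PAM + Zymosan, and 124 and 53 against HMW + Zymosan. Against PAM + HMW, where 225 genes were called, thinning each of the 12 libraries to 92149 UMIs gave 133, DESeq2 136 and no fold threshold 464, and leaving out single libraries gave 178 to 250. Against PAM + Zymosan (258 called) leaving out single libraries gave 161, without triplet replicate 1, to 303. Against HMW + Zymosan (276 called) thinning gave 181, DESeq2 177 and no fold threshold 526, with 191 to 315 on leaving out single libraries. DESeq2 called 138 higher and 39 lower genes there.

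Genes above all 3 pairs numbered 7, and 12 with no filter on low counts, 3 from the 12 libraries alone, 2 by DESeq2, 1 after thinning and 27 with no fold threshold. Leaving out single libraries gave 0 to 26. No fold threshold together with leaving out triplet replicate 1, chosen after seeing the data, gave 2. Genes below all 3 pairs numbered 1 with no fold threshold. The three-way interaction, 2 genes, became 1 under relative log expression factors and 0 after thinning, and 0 to 6 on leaving out single libraries. It needs the single ligands and Ctrl, so the fits of the 12 libraries alone do not give it. No single-ligand or Ctrl library was left out or thinned, so its dependence on them was not tested. Why the counts moved was not tested, beyond the fewer UMIs that thinning leaves.

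Without triplet replicate 1, the interferon-response medians went from 0.63 to 0.17 against PAM + HMW, 2.62 to 1.97 against PAM + Zymosan and 0.85 to 0.28 against HMW + Zymosan. These shifts are within the SD over the triplet libraries (0.73 to 0.82), which replicate 1 itself widens, so that SD is no measure of their stability. Medians moved past this SD, by smaller amounts, for other chemokines (0.23 against PAM + HMW and 1.38 against HMW + Zymosan), MHC class II (0.17 and 0.12), effector genes (1.10 against HMW + Zymosan), lysosome genes (0.14 against PAM + Zymosan) and the 3 cell cycle genes (-0.066 against PAM + HMW, from 0.28).

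With the replicate number as a block, which does not pair these libraries, 231, 261 and 277 genes were called against PAM + HMW, PAM + Zymosan and HMW + Zymosan, 8 above and 0 below all 3 pairs, and 2 interactions. In the simulation of the comparison with PAM + HMW, 64% and 46% of genes with a true log2 change of 1 and -1 passed the adjusted p, and 44% and 34% also passed the fold threshold. The simulation took the depth of the libraries and the mean levels of the groups, with the triplet set to PAM + HMW apart from the changed genes. It did not take the spread of each gene or the outlying triplet replicate 1.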

Other observations

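The following genes were not described above and were chosen after their values were seen. All of them passed with and without triplet replicate 1 in the comparisons where they are said to have risen or fallen.

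Marco, a scavenger receptor for bacteria, moved in opposite directions in a pair of comparisons. It was at 1329, 2055 and 1808 CPM in the triplet, 4886, 4584 and 4444 CPM in PAM + HMW, 2621, 2364 and 2782 CPM in PAM + Zymosan and 591, 578 and 540.0 CPM in HMW + Zymosan. The triplet thus lay below both pairs that hold PAM and above the pair without it, with no overlap. The log2 fold change was -1.42 (adjusted p = 2.73e-12, SE 0.17) with Zymosan added and 1.61 (adjusted p = 2.24e-12, SE 0.20) with PAM added, and -0.58 (adjusted p = 0.0186, SE 0.18) with HMW added, under 2-fold. PAM alone was at 5121 ± 411 CPM (SD, n = 3) and Zymosan, HMW and Ctrl averaged 629, 441 and 337 CPM. Mgll, an enzyme that breaks down monoacylglycerols, had the reverse pattern. It rose with Zymosan added (195, 265 and 216 CPM in the triplet, 49.1, 89.4 and 56.4 CPM in PAM + HMW, log2 fold change 1.76) and fell with PAM added (509, 619.7 and 522 CPM in HMW + Zymosan, log2 fold change -1.28).

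Mt1 and Mt2, metallothioneins that bind zinc and copper, rose with Zymosan added. Mt2 was at 580.2, 522 and 593 CPM in the triplet and 112, 103 and 144 CPM in PAM + HMW (log2 fold change 2.20, adjusted p = 1.4e-17, SE 0.21). It also rose with PAM added, from 242, 177 and 171 CPM in HMW + Zymosan (log2 fold change 1.55), while PAM + Zymosan overlapped the triplet at 632, 376 and 395 CPM. Mt1 was at 659.9, 669.6 and 629 against 211, 169.9 and 222 CPM (log2 fold change 1.69) and differed by less than 2-fold from HMW + Zymosan (log2 fold change 0.41). Both are close paralogs, so their reads may have been divided between them.

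Several further genes separated the groups. Fabp4, a fatty acid carrier, was at 456, 444 and 435 CPM in the triplet and 112, 121 and 106 CPM in PAM + HMW (log2 fold change 1.98), and Inhba, a subunit of activin, at 585, 553 and 483 against 161, 157 and 144 CPM (log2 fold change 1.81). Il12a, the p35 subunit of interleukin-12, fell with Zymosan added, at 88.6, 85.6 and 84.2 against 189.5, 224 and 247 CPM (log2 fold change -1.37). Stat3, which transmits signals of interleukin-6 and interleukin-10, rose with PAM added, at 416, 210.2 and 234 against 82.7, 118 and 102 CPM (log2 fold change 1.47). Vegfa, an angiogenic growth factor and known HIF target, fell with PAM added, at 62, 125 and 87.8 against 286, 189 and 179 CPM (log2 fold change -1.20).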
